A study of Mus musculus with 12 samples.

Results

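Sox4, Sox11 and Sox12 form the SOXC group of SRY-related transcription factors, and open chromatin at these 3 of 21627 protein-coding mouse genes was compared among sorted medulloblastoma cells. A peak belonged to a member when the middle of the peak fell in the gene or at most 100 kb from either end, with no other protein-coding gene nearer. By this rule 75 of the 218906 peaks in 12 peak lists belonged to the 3 genes, and they merged into 16 of 44242 regions. Another 17 regions lay 100 to 500 kb away in the gene deserts around Sox4 and Sox11, which gave 33 regions in all. The rule uses no measured value, but the 3 genes were proposed with earlier results of these data known.

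SOXC proteins share an HMG box that bends DNA and a C-terminal activation domain, and each is encoded by a single exon. In the developing nervous system proneural bHLH factors switch on Sox4 and Sox11, which then open and activate neuronal genes in cells that leave the progenitor state, while SOX2 and its SOXB relatives hold cells in that state. Sox12 is a weaker activator with a broad pattern of transcription. In the cerebellum, Sox4 and Sox11 are transcribed in granule neuron progenitors, the cells from which SHH medulloblastoma arises.

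The assay was ATAC-seq, in which a transposase cuts accessible DNA, on cells from endpoint tumours of Ptch1+/- mice. Ptch1 restrains hedgehog signalling, and loss of a copy predisposes mice to this cerebellar tumour. The groups were SOX2+ cells (4 libraries), SOX2+/MKI67+ cells (2), SOX2+/MKI67- cells (2) and SOX2- cells (4), and every library was untreated. Cells were sorted into SOX2+ and SOX2- by eGFP, and a further sort by RFP split SOX2+ cells by MKI67. A reaction held 35000 to 50000 cells, and the labels do not say whether the libraries of a group came from different animals. The p-values therefore cover only the spread among these libraries, which may be technical.

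The 12 lists held 7009 to 26206 peaks, and SOX2- replicates 1 and 2 were the shortest and the longest. Reads were not used here, so sequencing depth is unknown, and a peak that a list lacks may have narrowly missed its threshold. The sort marker Sox2 had 2 to 6 peaks per library in SOX2+ cells and 0 to 1 in SOX2- cells (log2 difference 1.49, limma adjusted p = 0.0589). Mki67, a gene of cycling cells, had 2 and 5 peaks in SOX2+/MKI67+ cells and 2 and 1 in SOX2+/MKI67- cells (log2 difference 0.64, limma adjusted p = 1). Of 12 microglia and macrophage markers, 7 were at 0 in every library, among them Aif1, Cx3cr1 and Csf1r, and the summed peaks of the list ranged from 2 to 9 in SOX2+, 4 to 9 in SOX2+/MKI67+, 4 to 8 in SOX2+/MKI67- and 0 to 5 in SOX2- libraries. Endothelial and mural markers summed to 4 to 13, 7 to 15, 9 to 11 and 0 to 16 peaks in the same order of groups, with Rgs5 at 0 throughout. The part of such cells in the results was not tested.

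The promoters are shown because each was listed in 8 or more libraries and the 3 genes can be compared there. The 250 bases before each start are printed 5′ to 3′ on the strand of the gene, from RefSeq on GRCm38.p6, the build that shares its coordinates with mm10. They cover chr13:28953700-28953949 for Sox4, chr12:27342719-27342968 for Sox11 and chr2:152398047-152398296 for Sox12, all on the minus strand. Capitals mark matches to the motifs named in the next paragraph.
Sox4: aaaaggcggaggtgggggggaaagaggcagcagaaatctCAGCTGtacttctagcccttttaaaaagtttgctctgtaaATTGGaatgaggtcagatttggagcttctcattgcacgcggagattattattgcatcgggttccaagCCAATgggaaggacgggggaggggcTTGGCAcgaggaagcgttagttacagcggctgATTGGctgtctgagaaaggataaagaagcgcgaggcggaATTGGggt
Sox11: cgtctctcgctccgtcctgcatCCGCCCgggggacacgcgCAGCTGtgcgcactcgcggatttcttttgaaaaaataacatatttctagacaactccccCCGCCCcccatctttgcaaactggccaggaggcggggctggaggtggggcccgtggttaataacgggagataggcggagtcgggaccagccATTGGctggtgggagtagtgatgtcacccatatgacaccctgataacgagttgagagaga
Sox12: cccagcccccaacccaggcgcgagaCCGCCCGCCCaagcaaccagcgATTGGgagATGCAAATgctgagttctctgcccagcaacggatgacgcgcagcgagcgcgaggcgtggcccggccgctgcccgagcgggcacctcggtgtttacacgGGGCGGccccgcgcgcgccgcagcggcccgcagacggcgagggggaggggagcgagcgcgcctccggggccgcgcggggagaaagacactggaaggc

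The 3 promoters differed in base composition and in the motifs they held. Motifs were searched on both strands, each share is of the same 250 bases in 17273 genes, and a match is a description, not a binding site. Sox4 and Sox11 each had the E-box CAGCTG, the kind of site that bHLH factors bind, at nearly the same place, 211 to 206 bases before the Sox4 start and 210 to 205 bases before the Sox11 start. This E-box stood in 11.9% of promoters. Sox12 lacked that match and had the POU octamer ATGCAAAT, 195 to 188 bases before its start, which 1.59% of promoters held.
The CCAAT box, CCAAT, matched 4 times in Sox4, 1 time in Sox11 and 1 time in Sox12, against a share of 36.5% of promoters with a match. The Sp/KLF GC box, GGGCGG, was not found in Sox4, matched 2 times in Sox11 and matched 3 times in Sox12, where a pair of matches overlapped, and 42.8% of promoters held it. The NFI motif TTGGCA matched 1 time, in Sox4 (11.7% of promoters). None of the 3 held the SOX cores ACAAAG or ACAATG, the E-box CAGATG or the GLI motif TGGGTGGTC, which stood in 15.1%, 9.08%, 12.4% and 0.151% of promoters. GC content was 50.8% in Sox4, 58% in Sox11 and 74.4% in Sox12, against a median of 55.6% over all promoters, and they held 11, 17 and 35 CpG pairs, against a median of 10. Sox12 therefore stood at percentile 94.4 of promoters for GC content, Sox11 at 57.4 and Sox4 at 35.

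The number of libraries that listed these promoters followed the order Sox11, Sox4, Sox12. Here a promoter window ran from 250 bases before to 50 after the start. The Sox11 window overlapped a peak in all 12 libraries, as 23% of promoter windows did, and 46.2% overlapped none in any library. The Sox4 window was listed in 11 libraries, all but SOX2- replicate 1, and 29.9% of windows were listed in at least as many. The Sox12 window was listed in 8 libraries, which 39.3% of windows reached or passed.
By group, the Sox12 window was listed in 3 of 4 SOX2+, 1 of 2 SOX2+/MKI67+, 2 of 2 SOX2+/MKI67- and 2 of 4 SOX2- libraries. The fold over local background, the authors' value for each peak, ranged from 3.14 to 4.68 for the Sox4 start peak, from 3.02 to 4.52 for Sox11 and from 2.44 to 2.87 for Sox12. Ranked by the authors' score within its own list, the Sox11 start peak stood at a median of the top 29.0% (12 lists), Sox4 at 50.3% (11 lists) and Sox12 at 75.4% (8 lists). The Sox12 start peak was therefore the weakest of the 3 in the lists that held it. The fold ranges of Sox4 and Sox11 overlapped, so fold did not order these genes. Summits lay a median of 106 bases before the start of Sox11, 42 before that of Sox4 and -9.5 for Sox12, that is, just inside the gene.

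Sox4 (gene 20677), which promotes neuronal differentiation and survival of progenitors, spans chr13:28948919-28953699, with Prl5a1 797 kb away on its downstream side and Cdkal1 238 kb away on its upstream side. Within 100 kb it had 3, 2, 2 and 2 peaks in SOX2+ replicates 1 to 4, 3 and 3 in SOX2+/MKI67+ cells, 2 and 2 in SOX2+/MKI67- cells, and 0, 8, 2 and 2 in SOX2- cells. The means were 2.25 ± 0.5 (SD, n = 4), 3 ± 0 (n = 2), 2 ± 0 (n = 2) and 3 ± 3.46 (n = 4). In order of the mean, SOX2+/MKI67+ and SOX2- were equal, then came SOX2+ and then SOX2+/MKI67-. Each group overlapped its neighbour in this order, and SOX2- replicates 1 and 2 held both the lowest and the highest count of all. In these bulk sorts, fewer cells of a type with open chromatin and less opening per cell cannot be told apart.

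Sox11 (gene 20666), which acts with Sox4 on neuronal genes and is also known for its part in axon growth, spans chr12:27334268-27342718 in a wide desert, with Cmpk2 854 kb and Dcdc2c 1095 kb away. It had 1, 1, 2 and 1 peaks in SOX2+ cells, 1 and 3 in SOX2+/MKI67+ cells, 2 and 2 in SOX2+/MKI67- cells, and 1, 2, 1 and 1 in SOX2- cells. The means were 1.25 ± 0.5 in SOX2+, 2 ± 1.41 in SOX2+/MKI67+, 2 ± 0 in SOX2+/MKI67- and 1.25 ± 0.5 in SOX2- cells (SD). The MKI67 groups shared the higher mean and the SOX2 groups the lower, and each group overlapped its neighbour in this order. The second start peak of SOX2+ replicate 3 and of SOX2+/MKI67+ replicate 2 lay at the same promoter, where other lists held a single wider or shorter peak.

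Sox12 (gene 20667) spans chr2:152393611-152398046 among close neighbours, Nrsn2 at 17.0 kb and Zcchc3 at 13.9 kb, and 10 of the 14 regions within 100 kb were nearer to 6 other genes. It had 2, 2, 2 and 4 peaks in SOX2+ cells, 0 and 4 in SOX2+/MKI67+ cells, 3 and 2 in SOX2+/MKI67- cells, and 0, 3, 2 and 2 in SOX2- cells. The means were 2.5 ± 1 in SOX2+, 2 ± 2.83 in SOX2+/MKI67+, 2.5 ± 0.707 in SOX2+/MKI67- and 1.75 ± 1.26 in SOX2- cells (SD). All 4 groups overlapped. The 2 libraries with no Sox12 peak, SOX2+/MKI67+ replicate 1 and SOX2- replicate 1, held 18738 and 7009 peaks in all, and the neighbour Zcchc3 had 3 and 1 peaks in them.

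**Figure D1:**
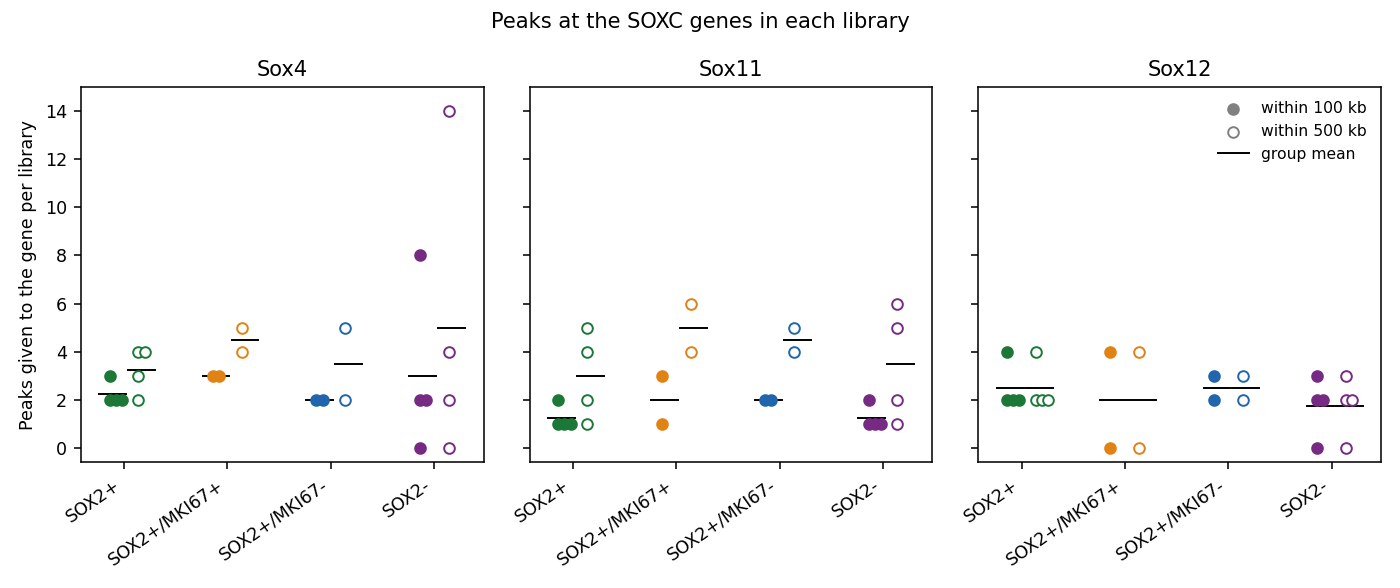
Number of peaks given to Sox4, Sox11 and Sox12 in each library (y axis), by sorted group (x axis), with filled points for peaks within 100 kb, open points for peaks within 500 kb and lines for group means. The groups overlap at each gene within 100 kb except Sox4 in SOX2+/MKI67+ (3 and 3) against SOX2+/MKI67- (2 and 2), and SOX2- replicate 2 stands highest at Sox4 with 8 peaks within 100 kb and 14 within 500 kb.

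The design asks first how the chromatin of stem-like SOX2+ cells differs from that of the SOX2- bulk, and no SOXC gene passed the test of that difference. Peaks per gene were fitted with limma on log2(peaks + 1) with the total peaks of each list as a covariate, over the 14182 genes that had peaks in 2 or more libraries, at an adjusted p (Benjamini-Hochberg) under 0.05. The test called 0 of 3 members and 0.86% of all genes, and at an unadjusted p under 0.05 it was 0 of 3 members and 13.3% of genes. The groups overlapped at all 3 members, while every SOX2+ library lay above every SOX2- library at 1.08% of genes tested and below at 0.12%. The log2 difference, SOX2+ minus SOX2-, was -0.04 for Sox4 (SE 0.41, 95% interval -0.98 to 0.91, limma adjusted p = 1). It was -0.04 for Sox11 (SE 0.23, interval -0.58 to 0.51, limma adjusted p = 1) and 0.34 for Sox12 (SE 0.44, interval -0.69 to 1.36, limma adjusted p = 0.85). These intervals still hold differences of 0.5 and more on the log2 scale in either direction, so equal opening was not shown. Both signs near 0 turned with single libraries. For Sox4 the difference became 0.41 when SOX2- replicate 2 was left out and 0.03 when replicate 3 of that group was, and leaving out SOX2+ replicate 4 gave 0.18 and replicate 3 gave 0.06. Sox11 gave 0.01 to 0.09 without SOX2+ replicate 1 or 4 or SOX2- replicate 1 or 2. With the same number of peaks from every list Sox4 gave 0.35 and Sox11 0.25.

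The next question of the design is how MKI67+ and MKI67- cells among the SOX2+ cells differ, and again no member passed. The test called 0 of 3 members beside 0.212% of all genes, and 0 of 3 beside 4.64% at an unadjusted p under 0.05. Sox4 was the member whose groups did not overlap, with 3 and 3 peaks in SOX2+/MKI67+ cells and 2 and 2 in SOX2+/MKI67- cells, as was true in this direction of 7.97% of genes tested and of 1.56% in the other direction. Its fitted difference was 0.21 (SE 0.58, 95% interval -1.13 to 1.55, limma adjusted p = 1). Sox11 gave -0.14 (SE 0.33, interval -0.91 to 0.64) and Sox12 -0.83 (SE 0.62, interval -2.28 to 0.62), each with a limma adjusted p of 1. The Sox12 value turned on SOX2+/MKI67+ replicate 1, the library with no Sox12 peak, and was 0.20 without it and -1.81 without replicate 2, and Sox11 gave 0.34 without SOX2+/MKI67+ replicate 1.

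The SOX2- libraries were also set against each MKI67 group, which ties these 2 comparisons to the first through shared libraries and sets cells from separate sorts side by side. For SOX2+/MKI67+ minus SOX2- cells the differences were -0.05 at Sox4 (SE 0.52), 0.23 at Sox11 (SE 0.30) and -0.59 at Sox12 (SE 0.56), and limma called 0 of 3 members beside 0.536% of genes (adjusted p = 0.897 to 1). For SOX2+/MKI67- minus SOX2- cells they were -0.26 at Sox4 (SE 0.50), 0.37 at Sox11 (SE 0.29) and 0.24 at Sox12 (SE 0.54), and limma called 0 of 3 beside 0.98% of genes (adjusted p = 0.676 to 1). At an unadjusted p under 0.05 it was 0 of 3 members in each, beside 9.49% of genes for SOX2+/MKI67+ and 14.4% for SOX2+/MKI67- against SOX2- cells. Both pairs of groups overlapped at all 3 members, while SOX2+/MKI67+ libraries lay wholly above SOX2- libraries at 5.47% of genes and below at 0.134%, and SOX2+/MKI67- libraries above at 5.88% and below at 0.656%. Single libraries turned the sign here too, since Sox4 gave 0.53 and 0.23 in the 2 comparisons without SOX2- replicate 2. In SOX2+/MKI67+ minus SOX2- cells, Sox4 also gave 0.12 without SOX2+/MKI67+ replicate 2 and 0.01 without SOX2- replicate 3, Sox11 gave -0.20 without SOX2+/MKI67+ replicate 2, and Sox12 gave 0.48 without SOX2+/MKI67+ replicate 1. The 95% interval of Sox11, the tightest of the 3, ran from -0.47 to 0.93 in SOX2+/MKI67+ minus SOX2- cells and from -0.31 to 1.04 in SOX2+/MKI67- minus SOX2- cells.

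**Figure D2:**
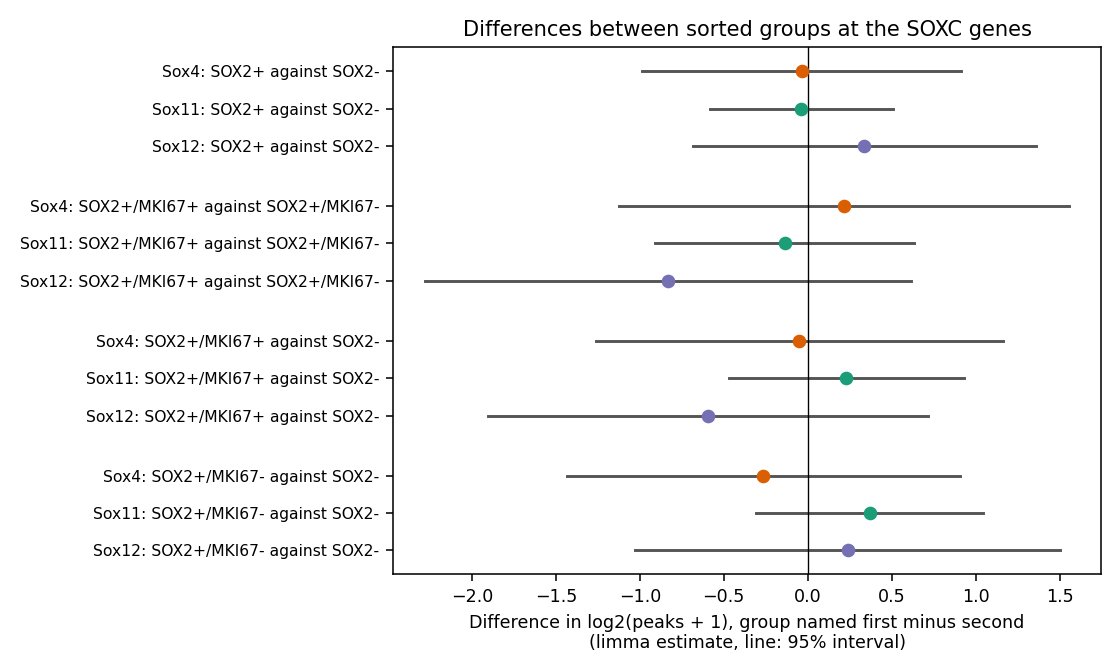
Fitted difference in log2(peaks + 1) (x axis, group named first minus second; points are limma estimates, lines 95% intervals) for the 3 SOXC genes in 4 comparisons. Every interval crosses 0, from the narrowest, Sox11 in SOX2+ against SOX2- cells (-0.58 to 0.51), to the widest, Sox12 in SOX2+/MKI67+ against SOX2+/MKI67- cells (-2.28 to 0.62).

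Single regions were then followed across the libraries, and a region counted as exclusive when it was listed in at least 3 of 4 (or 2 of 2) libraries of a group and in 0 of the other. Within 100 kb, 0 of 16 member regions were exclusive between SOX2+ and SOX2- cells, beside 4.1% of all regions exclusive to SOX2+ and 1.54% to SOX2- cells. The Sox11 start region, chr12:27342418-27343512, was listed in all 12 libraries, as were 12.2% of regions, and in 11 of them when each list was limited to its 7009 strongest peaks. The Sox4 start region, chr13:28953326-28954027, was listed in 4 of 4 SOX2+, 2 of 2 SOX2+/MKI67+, 2 of 2 SOX2+/MKI67- and 3 of 4 SOX2- libraries. With the 7009 strongest peaks it stayed in 3 SOX2+ libraries and 1 SOX2- library.

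Upstream of Sox4 lay a pair of regions with different patterns. The region 5.08 kb before the start, chr13:28958395-28959167, was listed in 4 of 4 SOX2+, 2 of 2 SOX2+/MKI67+, 2 of 2 SOX2+/MKI67- and 2 of 4 SOX2- libraries. The next region, 5.96 kb before the start at chr13:28959433-28959890, was listed in 0 of 4 SOX2+, 2 of 2 SOX2+/MKI67+, 0 of 2 SOX2+/MKI67- and 2 of 4 SOX2- libraries. It was the only member region within 100 kb that was exclusive in any of the 4 comparisons, to SOX2+/MKI67+ over SOX2+/MKI67- cells, as were 4.03% of all regions. Exclusive to SOX2+/MKI67- cells over SOX2+/MKI67+ cells was 0 of 16, against 0.972% of regions. The authors' fold over background there was 3.36 and 2.92 in SOX2+/MKI67+ replicates 1 and 2, and 4.16 and 4.33 in SOX2- replicates 2 and 4. Their -log10 q-values were 5.76 and 4.28 in the SOX2+/MKI67+ lists, where 65.0% and 86.6% of peaks ranked at or above it, against 18.3 and 8.02 in the SOX2- lists.
The same pattern, both SOX2+/MKI67+ libraries and at least 2 SOX2- libraries but no library of the other groups, was found at 229 of 44242 regions (0.518%), or 12.8% of the 1784 regions exclusive to SOX2+/MKI67+ over SOX2+/MKI67- cells. The Sox4 region was no longer exclusive at a -log10 q-value of at least 5, nor with the 7009 strongest peaks of each list.

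Sox12 was open inside the gene as well as at its start. The region 1.73 kb after the start, chr2:152396128-152396513, was listed in 4 of 4 SOX2+, 1 of 2 SOX2+/MKI67+, 2 of 2 SOX2+/MKI67- and 2 of 4 SOX2- libraries, and it was listed in more libraries (9) than the start region (8). The start region, chr2:152397741-152398339, was listed in 3 of 4, 1 of 2, 2 of 2 and 2 of 4 libraries of the same groups. A region 0.976 kb before the start, chr2:152398663-152399381, was listed in 2 of 4 SOX2+, 1 of 2 SOX2+/MKI67+, 1 of 2 SOX2+/MKI67- and 3 of 4 SOX2- libraries. With the 7009 strongest peaks of each list, the region inside the gene stayed in 3 SOX2+, 0 SOX2+/MKI67+, 2 SOX2+/MKI67- and 1 SOX2- libraries, while the start region stayed in 0 libraries. The fourth region, just past the end of the gene, was listed in SOX2+ replicate 4 and SOX2+/MKI67+ replicate 2. In the comparisons with SOX2- cells, 0 of 16 member regions were exclusive to SOX2+/MKI67+ (5% of all regions) or to SOX2- cells (1.1%), and 0 of 16 to SOX2+/MKI67- (6.21%) or to SOX2- cells (3.66%).

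Counts out to 500 kb took in the deserts. Sox4 had 3, 2, 4 and 4 peaks in SOX2+ cells, 5 and 4 in SOX2+/MKI67+ cells, 5 and 2 in SOX2+/MKI67- cells, and 0, 14, 2 and 4 in SOX2- cells. Of its 18 regions, 10 were listed only in SOX2- replicate 2 (55.6%), the library with the longest list, and 5 of these lay within 100 kb. Over the genome 10.4% of regions were listed only there, or 17.9% of the regions of that library. The fitted difference at 500 kb, SOX2+ minus SOX2-, was -0.11 (SE 0.41, limma adjusted p = 1).
A Sox4 region 301.6 kb downstream, chr13:28651777-28652323, was listed in 1 of 4 SOX2+, 2 of 2 SOX2+/MKI67+, 1 of 2 SOX2+/MKI67- and 0 of 4 SOX2- libraries. Another, 400.3 kb downstream at chr13:28553062-28553677, was listed in 2 of 4 SOX2+, 0 of 2 SOX2+/MKI67+, 1 of 2 SOX2+/MKI67- and 0 of 4 SOX2- libraries. A region 289.3 kb downstream, chr13:28664166-28664717, was listed in 2 SOX2- libraries, replicates 2 and 4, and in no other.

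Sox11 had a distal region nearly as widely shared as its start. This region, 277.6 kb downstream at chr12:27064878-27065413, was listed in 3 of 4 SOX2+, 2 of 2 SOX2+/MKI67+, 2 of 2 SOX2+/MKI67- and 3 of 4 SOX2- libraries, and the authors' fold there ranged from 3.83 to 5.97. The 2 lists without it, SOX2+ replicate 2 and SOX2- replicate 1, were the shortest of the 12, with 9377 and 7009 peaks. A neighbour at 259.9 kb downstream, chr12:27082611-27083100, was listed in 2 of 4 SOX2+, 2 of 2 SOX2+/MKI67+, 1 of 2 SOX2+/MKI67- and 0 of 4 SOX2- libraries, a presence in at least 5 libraries outside the SOX2- group and in none of it that 5.8% of regions showed. Another, at 280.3 kb downstream, chr12:27062204-27062551, was listed in SOX2+/MKI67+ replicate 1 and SOX2- replicates 2 and 4. These 3 neighbouring regions were thus listed across the groups, in the SOX2+ sorts alone, and in 1 of 2 SOX2+/MKI67+ and 2 of 4 SOX2- libraries.
Upstream, the region at 137 kb, chr12:27479678-27480063, was listed in SOX2- replicates 2 and 4 only, and the region at 233 kb, chr12:27575532-27575927, in SOX2+ replicate 3, SOX2+/MKI67+ replicate 2 and SOX2+/MKI67- replicate 1. Counted to 500 kb, Sox11 had 2, 1, 5 and 4 peaks in SOX2+ cells, 4 and 6 in SOX2+/MKI67+ cells, 4 and 5 in SOX2+/MKI67- cells, and 1, 6, 2 and 5 in SOX2- cells. Its difference, SOX2+ minus SOX2-, was then -0.28 (SE 0.18, limma adjusted p = 0.603). With the deserts included, the 301.6 kb region of Sox4 and the 259.9 kb region of Sox11 were exclusive to SOX2+/MKI67+ over SOX2- cells, which is 2 of 33 member regions beside 5% of all regions, and 0 of 33 member regions were exclusive in SOX2+ against SOX2- cells.

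**Figure D3:**
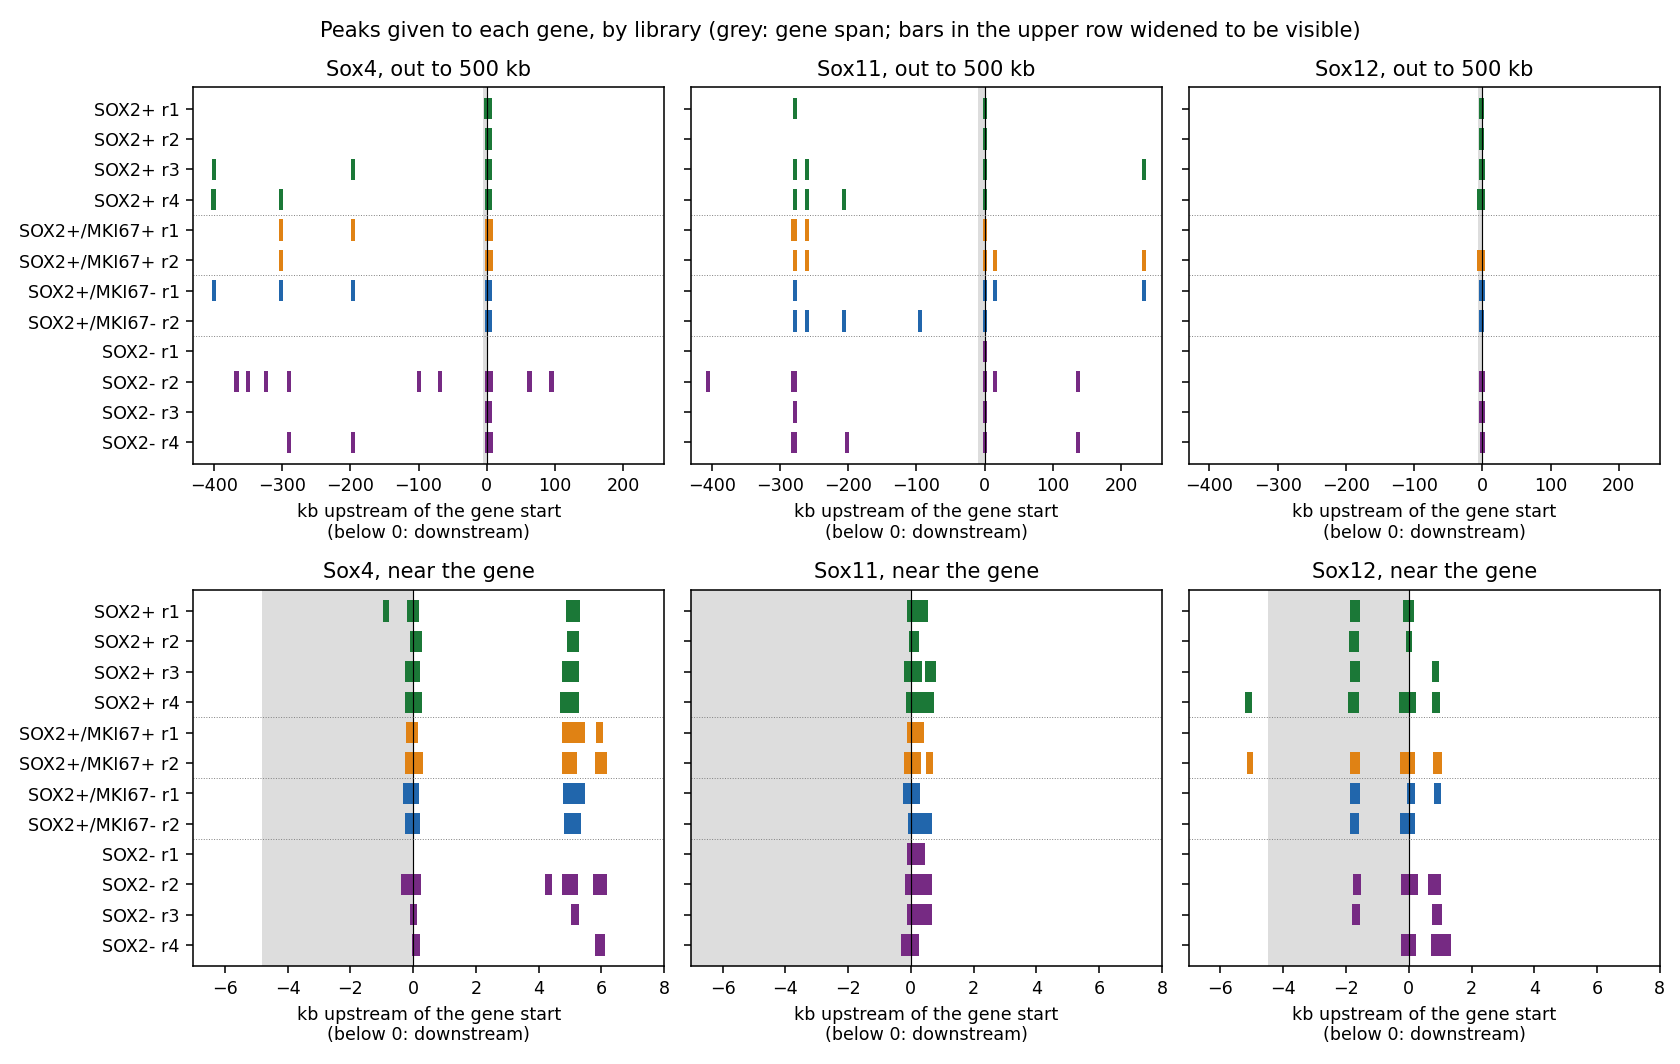
Position of every peak given to each gene (x axis, kb from the gene start, positive upstream) in each library (rows, by group), out to 500 kb in the upper panels and near the gene in the lower panels, with the gene span in grey. Sox11 shows a peak at the start in all 12 libraries and a column 277.6 kb downstream in 10, SOX2- replicate 2 holds more distal Sox4 peaks than any other library, and the region 5.96 kb upstream of Sox4 appears in SOX2+/MKI67+ replicates 1 and 2 and SOX2- replicates 2 and 4.

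Sox4 lies on proximal chromosome 13, taken here as its first 70 Mb, whose share of peaks differed between the sorts. Without the peaks of Sox4 itself, this stretch held 2.17 ± 0.275% of peaks in SOX2+ and 1.28 ± 0.401% in SOX2- libraries (SD, n = 4 each), a difference of 0.898 percentage points (two-sided exact permutation p = 0.0286, the smallest that 4 against 4 libraries can give). Every SOX2+ library, at 1.85% to 2.49%, lay above every SOX2- library, at 0.828% to 1.78%. The share was 1.97% and 2.06% in SOX2+/MKI67+ libraries and 2.66% and 2.55% in SOX2+/MKI67- libraries. The rest of chromosome 13 held 1.62% to 1.87% in SOX2+ and 1.81% to 1.88% in SOX2- libraries. Within SOX2- cells, Sox4 had 0 peaks in replicate 1 at a share of 0.828%, 2 in replicate 4 at 1.13%, 2 in replicate 3 at 1.37% and 8 in replicate 2 at 1.78%. The lowest and highest counts thus went with the lowest and highest shares. They also fell in the shortest and longest of the 12 lists (7009 and 26206 peaks). The SOX2+/MKI67- libraries had the highest shares of all and 2 Sox4 peaks each. The part of the share in the Sox4 values was not tested.

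**Figure D4:**
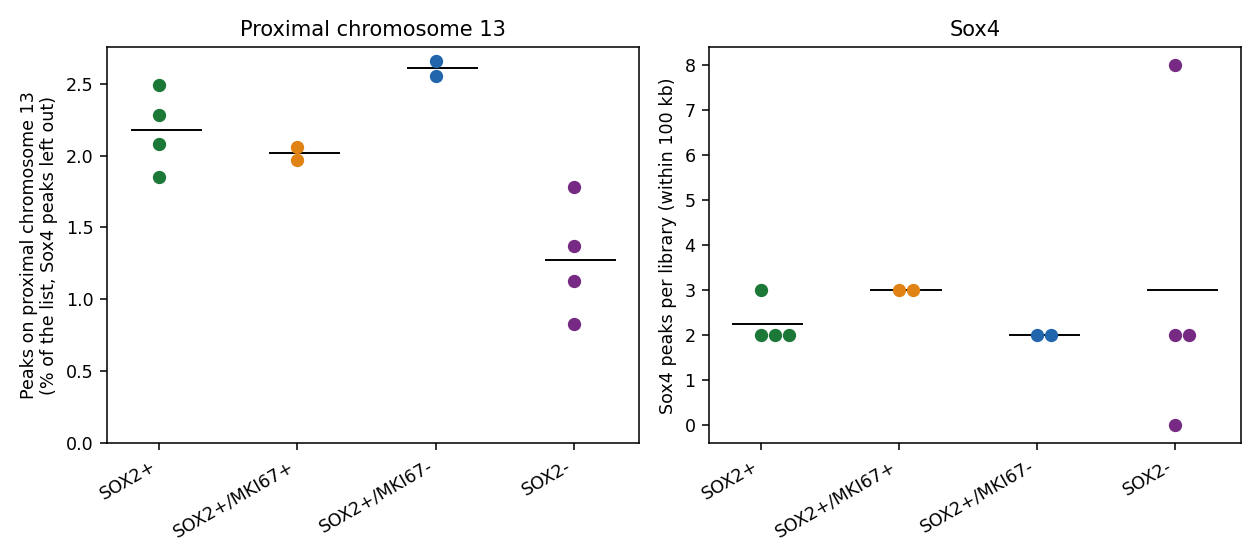
Share of each list's peaks on proximal chromosome 13 without Sox4 (left, % of peaks) and number of Sox4 peaks within 100 kb (right) in each library, by sorted group, with lines for group means. The share is 1.85% to 2.49% in SOX2+ and 0.828% to 1.78% in SOX2- libraries. The SOX2- libraries with the lowest and highest shares have 0 and 8 Sox4 peaks and are also the shortest and longest lists.

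The genes beside the members gave the local background. Cdkal1, upstream of Sox4, had 2, 0, 2 and 3 peaks in SOX2+ cells, 3 and 5 in SOX2+/MKI67+ cells, 2 and 1 in SOX2+/MKI67- cells, and 0, 11, 0 and 2 in SOX2- cells, so SOX2- replicate 2 stood high there too. Prl5a1 was at 0 in every library. Beside Sox11, Cmpk2 had 0 to 2 peaks in SOX2+, 1 and 2 in SOX2+/MKI67+, 3 and 2 in SOX2+/MKI67-, and 0 to 4 in SOX2- cells, and Dcdc2c had 1 peak in each of 2 libraries. Zcchc3, beside Sox12, had 3, 2, 3 and 3 peaks in SOX2+ and 1, 2, 2 and 2 in SOX2- cells, and 3 in each MKI67 library (SOX2+ minus SOX2- 0.41, limma adjusted p = 0.0778). Nrsn2, on the other side, had 0 or 1 peak in SOX2+ and 0 or 2 in SOX2- cells.

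Among 14 genes known to act upstream of SOXC factors or with them, 2 rose in SOX2+ against SOX2- cells and 0 fell. The other 12 did not pass (median log2 difference 0.03, against 0.00 over all genes), and limma called 0.86% of all genes in either direction. At an unadjusted p under 0.05 it was 4 of 14, beside 13.3% of all genes. Sox21, a SOXB relative of Sox2, had 2, 1, 2 and 4 peaks in SOX2+ cells and was listed at 0 in all 4 SOX2- libraries (difference 1.57 with the pseudocount of 1, SE 0.22, limma adjusted p = 0.022). Every SOX2+ library lay above every SOX2- library there, as at 1.08% of genes tested. Sox21 passed in 12 of 21 alternative settings (limma adjusted p up to 0.194). Atoh1, the proneural factor of granule neuron progenitors, had 1, 0, 4 and 3 peaks in SOX2+ and 2, 4, 4 and 3 in SOX2- cells and did not pass (difference -0.83, limma adjusted p = 0.512). Neurog2 (-0.68) and Neurod1 (-0.62), 2 more bHLH factors of the neuronal path, did not pass either. Neurog1, a further one, lay on the other side and did not pass (0.85, limma adjusted p = 0.611). It had 3, 0, 0 and 2 peaks in SOX2+ cells and 0 in every SOX2- library. The list was chosen with earlier results of these data known.

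Among 16 genes known as SOXC targets or as neuronal and progenitor genes of that programme, 15 could be tested. In SOX2+ against SOX2- cells 0 rose, 1 fell and 14 did not pass (median -0.51), beside 0.86% of all genes called in either direction. At an unadjusted p under 0.05 it was 4 of 15, beside 13.3% of all genes. Map2, a microtubule protein of dendrites, had 2, 1, 3 and 4 peaks in SOX2+ and 1, 7, 3 and 6 in SOX2- cells, a difference of -0.63 (SE 0.07, limma adjusted p = 0.00733). Its groups overlapped, and the call was kept in 18 of 22 settings. It was lost without the covariate for total peaks (adjusted p = 0.932), with the stricter threshold (0.298), with a replicate block (0.128) and with equal peak numbers, where the difference was 0.00 (adjusted p = 1). Gap43, a growth cone protein, had 1, 1, 4 and 4 peaks in SOX2+ and 1, 11, 5 and 7 in SOX2- cells (-1.06, limma adjusted p = 0.306). Stmn2 (-1.14), Tubb3 (-0.51) and Dcx (-0.39), genes of the neuronal cytoskeleton, did not pass. Hes5, a Notch effector of progenitors, had 2, 1, 2 and 2 peaks in SOX2+ and 0, 2, 0 and 1 in SOX2- cells (0.68, limma adjusted p = 0.173).
In SOX2+/MKI67+ against SOX2+/MKI67- cells limma called none of these genes (1 of 14 upstream genes and 2 of 15 targets had an unadjusted p under 0.05, beside 4.64% of all genes), and the median difference was 0.01 for the upstream genes and 0.31 for the targets, against -0.02 over all genes. Gap43 had 5 and 7 peaks in SOX2+/MKI67+ and 0 and 2 in SOX2+/MKI67- cells (1.75, SE 0.57, limma adjusted p = 0.77). In the comparisons of the SOX2+/MKI67+ and SOX2+/MKI67- cells with SOX2- cells limma also called none, with 5 and 7 of 14 upstream genes and 2 and 5 of 15 targets at an unadjusted p under 0.05, beside 9.49% and 14.4% of all genes. The target medians were -0.20 and -0.55 there.
Of 12 stem and glial markers 4 rose in SOX2+ against SOX2- cells and 0 fell (median 1.20), beside 0.86% of all genes called in either direction. These were Fabp7, Nkx2-2, Olig2 and Sox21, and the first 3 had 1 to 4 peaks in every SOX2+ library. Fabp7 had 1 peak in each SOX2+ library and 0 in each SOX2- library. Its counts thus did not vary within either group (difference 1.00, SE 0.008), and the call rests on 1 listed peak per library. Fabp7 passed in 20 of 21 alternative settings and Nkx2-2 in 20 of 22, but Olig2 in 11 of 22. Fabp7 and Nkx2-2 also rose in SOX2+/MKI67+ against SOX2- cells (2 of 12, beside 0.536% of genes). Both, with Olig2, rose in SOX2+/MKI67- against SOX2- cells (3 of 12, beside 0.98%). The last call of Olig2 (limma adjusted p = 0.0495) was kept in 6 of 22 alternative settings. Of 14 granule neuron progenitor markers 0 rose and 1, Nhlh1, fell in SOX2+ against SOX2- cells (median -0.61), beside 0.86% of all genes. Nhlh1 passed in 10 of 21 alternative settings, and 6 of 14 markers had an unadjusted p under 0.05, beside 13.3% of genes. In SOX2+/MKI67+ against SOX2- cells limma called 0 of 14, with 3 at an unadjusted p under 0.05, beside 9.49% of genes. In SOX2+/MKI67- against SOX2- cells 1 of 14 rose and 1 fell, beside 0.98% of genes called. Of the 14, 6 had an unadjusted p under 0.05 there, beside 14.4% of genes. Mycn had 5 and 6 peaks in SOX2+/MKI67- and 2, 4, 2 and 3 in SOX2- cells (limma adjusted p = 0.0495, passing in 2 of 22 alternative settings), and Zic2 had 0 and 0 in SOX2+/MKI67- and 1, 2, 3 and 3 in SOX2- cells (limma adjusted p = 0.0337, passing in 12 of 22). Between SOX2+/MKI67+ and SOX2+/MKI67- cells limma called 0 of either list, with 2 of each at an unadjusted p under 0.05, beside 4.64% of all genes.

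The genes whose peak counts were most like those of each member were found by Pearson correlation over the 12 libraries, once total peaks were taken out, among 14181 other genes. Libraries share depth and sort, and counts are small whole numbers, so these are descriptions. Ties were broken by higher mean peaks and then by name. Ftsj1, Polr1b and St6galnac4 were among 4 genes tied as the nearest to Sox4 (r = 0.929 each). These 3 had 1 peak in every library except 3 in SOX2- replicate 2 and 0 in SOX2- replicate 1. Their likeness to Sox4 thus came from the longest and the shortest lists. Parp10 (r = 0.936), Ino80b (0.852) and H4c11 (0.836) were nearest to Sox11. Magohb and Prss57 (r = 0.919 each) and Idh1 (0.917, among 9 genes tied at that value) were nearest to Sox12. Magohb and Prss57 shared with Sox12 the value 0 in SOX2+/MKI67+ replicate 1 and SOX2- replicate 1.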

How the data were processed

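Reads were aligned to mm10 with Bowtie2 and peaks were called with MACS2, per the submitters' processing notes. For both tools, version and settings are not given in the sources used here. All 12 deposited lists, 1 per library, gave for each peak a score, a fold ratio over background, a -log10 p-value and q-value and a summit, all made by the authors, and were used unfiltered. Ranks by score were taken within a list. Fold and -log10 q-values were also set side by side between lists, without adjustment for list length, as a description. The stricter alternative applied the same -log10 q-value limit to every list.

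Peaks were given to the nearest protein-coding gene of the RefSeq table of GRCm38.p6 within 100 kb, and peaks overlapping by at least 1 bp were merged. Counts of peaks were tested with limma 3.58.1 in R 4.3.3 (lmFit, eBayes with trend; 4 groups, log10 total peaks as covariate), with adjustment over 14182 genes. The fit was run on independent Poisson counts simulated from the real gene means and list lengths, with changes placed in SOX2+ cells only. Library spread beyond Poisson and the MKI67 comparisons were not covered by it. Promoters were those of 17273 genes with a window in the table, and 4354 genes had none. Python 3.11.15 and scipy 1.17.1 did the rest.

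The members, lists and tests were chosen with earlier results of these data known. Named were the 3 members, their nearest genes on each side, list genes that passed and the 3 most like genes; of the regions, exclusive ones, those in all 12 libraries and the most widely listed at each gene. Other list genes and regions were named after their values were seen. A list gene that passed is counted but not reported here. Alternatives were equal peak numbers (7009), a -log10 q-value of at least 5, pseudocount 0.5, minimums of 1 and 4 libraries, no covariate, windows of 50 and 500 kb, regions from 200 bp summit windows, a replicate block and each library left out.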

Additional observations from a re-analysis of the deposited data

Results flagged for a closer look

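In a group of 4 libraries, the gap of a count to the nearest other count was divided by the range of the group. A count was singled out when this ratio exceeded the 95% critical value of Dixon's test. This held for Sox4 in SOX2+ cells, where replicate 1 had 3 peaks and the others 2. It held for Sox11 in SOX2+ cells, where replicate 3 had 2 peaks, both in the start region, and the others 1. It also held for Sox11 in SOX2- cells, where replicate 2 had 2 and the others 1. It held for Sox12 in SOX2+ cells, where replicate 4 had 4 peaks and the others 2. Each rests on tied small counts, where 3 equal counts and 1 other always give a ratio of 1. Chance exceeds the critical value in about 1 of 20 groups of normally distributed values, and that rate does not apply to such counts. The 8 Sox4 peaks of SOX2- replicate 2 did not pass (ratio 0.75).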

How the results depend on the processing

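No member passed in any of 264 alternative fits of the 12 member differences (lowest limma adjusted p 0.432), and the sign of the log2 difference was reversed in 33. For SOX2+ minus SOX2- cells, Sox4 (-0.037) became 0.354 with equal peak numbers, 0.238 with the stricter threshold, 0.075 with pseudocount 0.5, 0.104 without the covariate and 0.207 within 50 kb, and Sox11 (-0.038) became 0.250 with equal peak numbers and 0.120 with the stricter threshold. For SOX2+/MKI67+ minus SOX2+/MKI67- cells, Sox11 became 0.183 with the stricter threshold and 0.151 within 50 kb. For SOX2+/MKI67+ minus SOX2- cells, Sox4 became 0.307, 0.013, 0.415 and 0.268 with the stricter threshold, pseudocount 0.5, no covariate and 50 kb. For SOX2+/MKI67- minus SOX2- cells the stricter threshold gave 0.288 at Sox4, -0.082 at Sox11 and -0.485 at Sox12, and 50 kb gave 0.008 at Sox4. Leaving out 1 library moved Sox4, Sox11 and Sox12 over -0.376 to 0.41, -0.163 to 0.09 and 0.043 to 0.502 (SOX2+ minus SOX2-), 0.028 to 0.391, -0.59 to 0.337 and -1.81 to 0.204 (SOX2+/MKI67+ minus SOX2+/MKI67-), -0.286 to 0.531, -0.205 to 0.721 and -1.54 to 0.477 (SOX2+/MKI67+ minus SOX2-), and -0.501 to 0.234, 0.246 to 0.51 and 0.087 to 0.396 (SOX2+/MKI67- minus SOX2-); a group left with 1 library was assumed to vary like the others. In the same order of comparisons, limma called 122, 30, 76 and 139 genes, 80 to 194, 31 to 78, 83 to 135 and 95 to 217 with 1 library left out, and 225, 54, 147 and 252 with equal peak numbers. The counts that moved by over 1.5 times were 80 without SOX2+ replicate 1 and 184 without SOX2- replicate 1 in the first comparison, 78 without SOX2+ replicate 4 and 48 to 75 without any 1 MKI67 library in the second, 118, 122 and 121 in SOX2+/MKI67+ against SOX2- cells without SOX2+ replicate 4, SOX2- replicate 1 and SOX2+/MKI67+ replicate 1, and, without SOX2+ replicate 2, 194 in the first, 135 in SOX2+/MKI67+ against SOX2- cells and 217 in SOX2+/MKI67- against SOX2- cells. Leaving out the 1759 genes with the same count in every library, chosen after seeing the data, gave 230, 0 (689 at an unadjusted p under 0.05), 45 and 156; the second comparison had 18 with the stricter threshold and 11 with a minimum of 4 libraries, and the fourth 87 without the covariate. Replicate numbers were not taken as pairs: residuals of same-numbered SOX2+ and SOX2- libraries correlated at -0.00391, 0.409, 0.0764 and -0.182, and those of the MKI67 groups at 0.0626. Differently numbered SOX2+ and SOX2- libraries correlated at -0.542 to 0.479, and those of the MKI67 groups at -0.0626. In a group of 2 libraries the residuals mirror each other. The MKI67 values are therefore 1 number with opposite signs, not separate checks, and no conclusion on pairing is drawn from them. With the replicate number within each kind of sort as a block, 56 and 27 genes passed in the first 2 comparisons. In the other 2 the block was the replicate number alone, which joins same-numbered libraries of separate sorts, and 208 and 226 genes passed. No member passed with either block (SOX2+ minus SOX2-: Sox4 -0.074, Sox11 -0.055, Sox12 0.359). For exclusive regions, the Sox4 count in SOX2+/MKI67+ against SOX2+/MKI67- cells was 0 in place of 1 with the stricter threshold and with equal peak numbers, and Sox12 had 1 in place of 0 with equal peak numbers; in SOX2+/MKI67- against SOX2- cells Sox12 had 1 with the stricter threshold, and at 500 kb Sox4 and Sox11 had 1 each in SOX2+/MKI67+ against SOX2- cells. With 1 library left out, these counts ranged from 0 to 1 for Sox4 in SOX2+ against SOX2- cells, for Sox11 in SOX2+/MKI67+ against SOX2+/MKI67- cells, for Sox12 in SOX2+/MKI67+ against SOX2- cells and for each member in SOX2+/MKI67- against SOX2- cells, and from 0 to 2 for Sox12 in SOX2+/MKI67+ against SOX2+/MKI67- cells. The higher counts came without SOX2- replicate 1 or 3 for Sox4, without SOX2+/MKI67- replicate 1 for Sox11, and for Sox12 without either SOX2+/MKI67+ library or, against SOX2- cells, SOX2+/MKI67- replicate 1. The rule was looser for a group that had lost a library. A region listed in 2 of the remaining SOX2- libraries, or in the 1 remaining library of an MKI67 group, then counted as exclusive. These rises can therefore come from the looser rule as well as from the library left out. The difference in the chromosome 13 share was 0.748 to 1.06 with 1 library left out, where the smallest exact p possible is 0.0571, 0.878 with equal peak numbers and 0.938 with the stricter threshold. The cause of these shifts was not tested. The lists held 7009 to 26206 peaks and sequencing depth is unknown, so a peak that is not listed is not shown to be closed chromatin.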
